A study of Mus musculus with 10 samples.

Results

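Tumors grown from M-Wnt cells were examined for Tnf and 9 genes that the NF-kB transcription factors are known for: the subunits Rel, Relb, Nfkb1 and Nfkb2, the inhibitors Nfkbia and Tnfaip3, the survival genes Birc3 and Traf1, and the adhesion gene Icam1. Members were found by name in the probe annotation of the array, and a gene with several probe sets was read by the brightest of them on average. Of the 10 genes 9 were found among the 19505 genes tested. Nfkb1 is not named by any probe set of the annotation used and was not analysed here.

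M-Wnt is a mouse mammary cancer line of the claudin-low kind. The cells of both groups carried a doxycycline-inducible shRNA against Pcx, the gene of pyruvate carboxylase, and 50000 of them were injected into the mammary fat pad (the 4th) of female C57BL6/J mice of 8 to 12 weeks on the purified diet AIN-93G. Mice of the shPC group (5 tumors) drank water with 150 µg/ml doxycycline to switch the shRNA on, and mice of the Ctrl group (5 tumors) drank standard water, so that the knockdown and the drug cannot be told apart. RNA of each whole tumor, host cells included, was hybridized to 1 Clariom S mouse array, and the study's methods count the groups in mice, although the labels do not name the mouse of each tumor. P-values rest on the spread among tumors. The number of arrays limits the precision.

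Signals are given on the log2 scale and differences are shPC minus Ctrl. Over all genes the median signal of an array was 7.35 to 7.47 in Ctrl and 7.38 to 7.40 in shPC 1 to 4, and shPC 5 stood apart at 7.16, with the lowest of the array weights (0.56). Pcx itself was 2.48 lower in shPC (standard error 1.19, adjusted p = 0.378 from limma, exact permutation test, two-sided, p = 0.111). For Pcx 3 shPC tumors read below all Ctrl tumors and 2 lay within the Ctrl range of 7.24 to 11.01. Those 3 were shPC 2, 4 and 5 (4.69, 4.49 and 5.15), which also had the lowest means of adipocyte markers (7.05, 6.69 and 7.54). Ctrl 3 was highest in both (11.01 and 13.41). Whether the Pcx difference lay in the tumor cells or in fat was not tested. Mesenchymal markers (9 measured, 2 higher and 0 lower in shPC at an unadjusted p under 0.05) averaged 13.46 to 13.92 in Ctrl and 13.61 to 14.12 in shPC, with Vim at 17.48 to 17.66 and the cadherin Cdh2 higher by 1.01. Of 9 epithelial markers 3 were lower at that p, the claudin Cldn7 lay under the 30th percentile of its array in all 10 tumors, and Krt14 reached 14.67 in the highest tumor and Cdh1 11.53. Of all genes 0.0% passed an adjusted p under 0.05, and none of the 9 was among the 1 gene that passed without Ctrl 4, the 1 without shPC 2 or the 4 without shPC 4. At an unadjusted p under 0.05, 1219 genes (6.25%) were lower and 1521 (7.8%) higher in shPC by limma, and by the methods' t-test 0 passed after adjustment and 1045 were lower and 1613 higher before it.

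TNF is a cytokine made mainly by macrophages and lymphocytes, and its receptors pass the signal through adaptors and ubiquitin ligases to the IKK kinases. These kinases mark the inhibitor protein of the NF-kB dimers for destruction, and the freed dimers enter the nucleus and bind kB sites in the DNA. Among the genes they switch on are the pathway's own brakes, above all the inhibitor IkB-alpha (Nfkbia) and the ubiquitin-editing enzyme A20 (Tnfaip3), as well as Tnf, Birc3, Traf1, Icam1 and the genes of most NF-kB subunits.

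The windows before the start sites are shown because kB sites are the feature these genes are known to share. RefSeq windows of the build GRCm38.p6 were at hand for 8 of the 9 measured genes (11 windows, Relb having none in the table used), and the 250 bases before the start site were searched on both strands. The kB consensus, searched by its usual degenerate form, lay in 3.9% of all 32817 windows of this length. The core GGAAATTCC, which was chosen after the windows had been seen and can overlap the consensus, lay in 0.286%, and 1 or both lay in 4.03%. Windows of Tnfaip3, Nfkbia, Rel and Nfkb2 held the consensus and windows of Tnfaip3, Nfkbia and Icam1 held the core. In all, 5 of the 8 genes held 1 or both, Icam1 through the core alone. The shares above are per window, while a gene with several windows had more than 1 chance, and no share per gene is given here. No window of Tnf, Birc3 or Traf1 held either, and sites more than 250 bases before the start or after it were not searched. A match is a stretch of letters and was not measured as a bound site. Below, capitals mark the matches, on either strand, and each window runs 5′ to 3′ along the gene.
Tnf, chr17:35202008-35202257 (- strand): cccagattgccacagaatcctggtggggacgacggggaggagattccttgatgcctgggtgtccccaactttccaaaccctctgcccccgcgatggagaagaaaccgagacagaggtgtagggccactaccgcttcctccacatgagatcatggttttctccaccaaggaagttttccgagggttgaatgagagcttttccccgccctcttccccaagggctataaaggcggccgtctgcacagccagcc
Tnfaip3, chr10:19015411-19015660 (- strand): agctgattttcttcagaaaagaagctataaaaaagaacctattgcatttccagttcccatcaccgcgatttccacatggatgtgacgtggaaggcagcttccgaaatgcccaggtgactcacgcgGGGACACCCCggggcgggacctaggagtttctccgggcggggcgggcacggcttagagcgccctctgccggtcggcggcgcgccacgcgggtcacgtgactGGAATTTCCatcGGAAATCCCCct
Nfkbia, chr12:55492648-55492897 (- strand): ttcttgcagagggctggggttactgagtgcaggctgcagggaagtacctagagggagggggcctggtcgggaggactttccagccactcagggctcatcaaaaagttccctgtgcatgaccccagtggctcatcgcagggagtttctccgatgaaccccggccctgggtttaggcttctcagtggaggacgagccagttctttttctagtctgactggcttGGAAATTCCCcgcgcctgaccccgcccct
Rel, chr11:23770970-23771219 (- strand): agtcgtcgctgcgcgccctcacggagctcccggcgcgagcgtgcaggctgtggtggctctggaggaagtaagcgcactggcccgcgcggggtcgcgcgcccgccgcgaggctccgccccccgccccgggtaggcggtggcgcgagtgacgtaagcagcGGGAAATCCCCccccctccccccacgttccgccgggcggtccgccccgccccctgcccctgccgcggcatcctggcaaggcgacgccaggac
Nfkb2, chr19:46304487-46304736 (+ strand): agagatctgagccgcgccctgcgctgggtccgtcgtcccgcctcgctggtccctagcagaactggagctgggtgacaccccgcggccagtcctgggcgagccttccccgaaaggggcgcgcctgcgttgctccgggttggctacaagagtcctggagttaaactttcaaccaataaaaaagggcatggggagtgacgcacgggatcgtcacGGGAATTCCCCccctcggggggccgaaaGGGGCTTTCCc
Icam1, chr9:21015690-21015939 (+ strand): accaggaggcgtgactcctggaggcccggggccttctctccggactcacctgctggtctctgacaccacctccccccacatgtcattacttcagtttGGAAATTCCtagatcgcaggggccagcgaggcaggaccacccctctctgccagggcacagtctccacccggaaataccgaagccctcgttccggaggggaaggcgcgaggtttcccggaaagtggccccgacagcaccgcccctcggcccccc

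Positions are counted from the start site, with -1 the base before it. In Tnfaip3 the consensus began at -125 and -12 and the core at -24. In Nfkbia both began at the same base, -29. Rel had overlapping matches of the consensus from -92 and -91, and the Nfkb2 window shown had matches from -39, -38 and -11. The core of Icam1 lay farther out, from -153 to -145. A second window of Tnfaip3 held neither motif, and each of the other two windows of Nfkb2 held the consensus once.

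**Figure D1:**
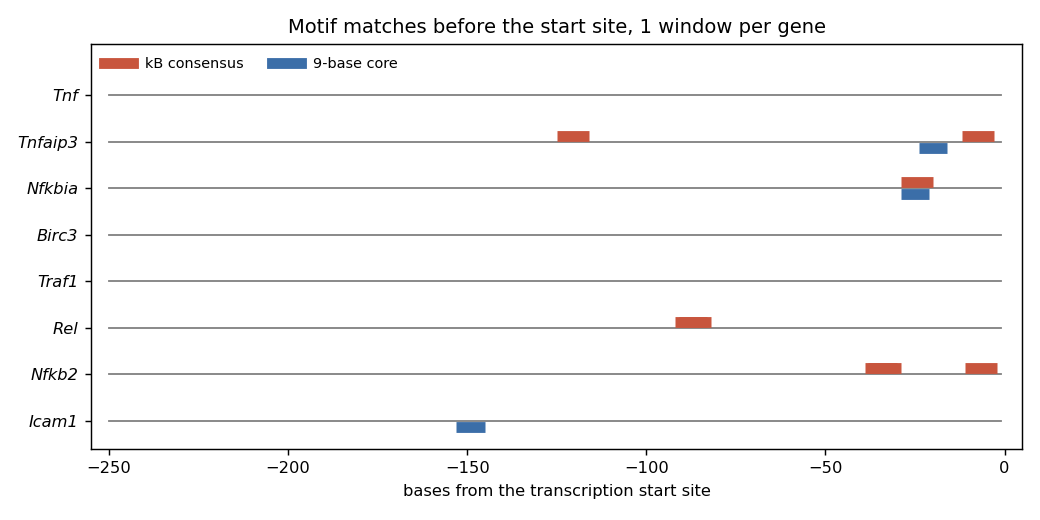
Position of matches to the kB consensus (red) and the 9-base core (blue) in the 250 bases before the start site of each gene, in bases from the start site, with 1 window shown per gene (for genes with several, the one with the most matches). Tnfaip3, Nfkbia and Nfkb2 have matches within 40 bases of the start, Rel and Icam1 only farther out, and the lines of Tnf, Birc3 and Traf1 are empty.

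Each of the 9 genes had a lower mean in shPC than in Ctrl. The differences ran from -1.26 (Tnf) to -0.25 (Nfkb2) with a median of -0.69, beside a median of 0.04 over all genes, of which 44.9% were lower. At an unadjusted p under 0.05, 6 of the 9 were lower by limma (Tnf, Tnfaip3, Rel, Birc3, Icam1 and Nfkbia), beside 6.25% of all genes, and 0 passed the adjusted threshold (adjusted p 0.185 to 0.553). In none of the 9 were the groups fully apart, beside 1.79% of all genes that were apart and lower and 1.82% that were apart and higher. Without Ctrl 1 the groups were apart in 3 of them, and the matching share of all genes is not given here. Without Ctrl 2 or without Ctrl 3 the count of 6 became 3 (Tnf, Tnfaip3 and Rel), and without shPC 5 it became 5 (Nfkbia and Icam1 left it and Traf1 joined it). Of all genes, 1219 were lower at that p with all tumors, 1046 without Ctrl 2, 955 without Ctrl 3 and 984 without shPC 5. In bulk tumors fewer cells of a type and less RNA per cell cannot be told apart.

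Tnf, the cytokine itself, had the largest difference of the 9. Its signals were 8.63, 9.57, 10.01, 9.94 and 9.70 in Ctrl 1 to 5 and 8.37, 8.67, 8.22, 8.53 and 7.76 in shPC 1 to 5. Ctrl 1 was the only Ctrl tumor within the shPC range, and 4 of the 5 shPC tumors lay below all Ctrl tumors. The mean was 9.57 ± 0.55 in Ctrl and 8.31 ± 0.35 in shPC (SD, n = 5 each), a 2.39-fold difference. The difference of -1.26 (standard error 0.27) had an adjusted p of 0.185 by limma and p = 0.0159 in the exact permutation test (two-sided, unadjusted, smallest possible p 0.00794). Without shPC 5 the difference was -1.12.

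The brakes of the pathway are Tnfaip3 and Nfkbia. Tnfaip3 encodes A20, which takes activating ubiquitin chains off the receptor complex. It read 11.81, 12.41, 12.20, 11.37 and 11.16 in Ctrl 1 to 5 and 10.25, 10.90, 11.35, 11.17 and 9.41 in shPC 1 to 5. Ctrl 1, Ctrl 2 and Ctrl 3 were clearly above every shPC tumor, Ctrl 4 was level with shPC 3, and Ctrl 5 with shPC 4. The difference was -1.17 (standard error 0.37, limma adjusted p = 0.233, exact permutation p = 0.0238) and -0.87 without shPC 5.

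Nfkbia encodes IkB-alpha, the inhibitor that holds NF-kB dimers in the cytoplasm. It read 13.08, 13.50, 13.58, 12.67 and 12.50 in Ctrl 1 to 5 and 12.51, 12.62, 12.55, 12.69 and 11.70 in shPC 1 to 5. The shPC tumors 1 to 4 lay close together, level with Ctrl 4 and Ctrl 5, and only shPC 5 was below all Ctrl tumors. The difference was -0.65 (standard error 0.26, limma adjusted p = 0.295, exact permutation p = 0.0794). Without shPC 5 it was -0.47, and Nfkbia was no longer among the genes at an unadjusted p under 0.05.

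Birc3 and Traf1 act at the receptor complex. Birc3 encodes cIAP2, a ubiquitin ligase that protects cells from TNF-induced death. Its signals were 13.76, 14.42, 14.40, 13.53 and 13.71 in Ctrl 1 to 5 against 13.23, 13.59, 13.68, 13.39 and 12.47 in shPC 1 to 5. All shPC tumors but shPC 2 and shPC 3 were below Ctrl 4, the lowest Ctrl tumor. The difference was -0.69 (standard error 0.26, limma adjusted p = 0.276, exact permutation p = 0.0317) and -0.49 without shPC 5.

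Traf1 encodes an adaptor that binds the receptor complex with TRAF2. In Ctrl 1 to 5 it read 10.28, 11.15, 10.94, 10.32 and 10.43, and in shPC 1 to 5 it read 10.10, 10.28, 10.31, 9.84 and 7.81. shPC 5 lay far below the other shPC tumors, and shPC 2 and shPC 3 were level with Ctrl 1 and Ctrl 4. The SD was 1.06 in shPC and 0.40 in Ctrl (n = 5 each). The difference of -0.96 (standard error 0.44, limma adjusted p = 0.356, exact permutation p = 0.0238) became -0.49 without shPC 5, and Traf1 then had an unadjusted p under 0.05.

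Of the NF-kB subunits, Rel (c-Rel, abundant in lymphoid and myeloid cells) differed most. Rel read 12.76, 13.20, 13.40, 12.93 and 12.77 in Ctrl 1 to 5 and 12.38, 12.76, 12.56, 12.66 and 11.71 in shPC 1 to 5. The groups met at a single point, where shPC 2 was level with Ctrl 1, and the other shPC tumors were below all Ctrl tumors. The difference was -0.60 (standard error 0.22, limma adjusted p = 0.262, exact permutation p = 0.0159) and -0.42 without shPC 5.

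Relb and Nfkb2 encode the subunits of the alternative route, in which the Nfkb2 product p100 is cut to p52 and pairs with RelB. Relb signals were 8.59, 9.25, 8.91, 8.40 and 8.39 in Ctrl 1 to 5 and 8.66, 8.68, 8.27, 7.87 and 7.78 in shPC 1 to 5. shPC 1 and shPC 2 lay inside the Ctrl range and shPC 3, 4 and 5 below it. The difference was -0.46 (standard error 0.23, limma adjusted p = 0.412, exact permutation p = 0.119), beside SDs of 0.37 in Ctrl and 0.42 in shPC. Relb had an unadjusted limma p of 0.0777 with all tumors, 0.0439 without shPC 1 and 0.0416 without shPC 2. Nfkb2 read 10.89, 11.40, 11.52, 11.10 and 10.95 in Ctrl and 11.34, 10.92, 10.98, 10.77 and 10.60 in shPC, in the same order of tumors. Here shPC 1 was higher than 3 of the Ctrl tumors. The Nfkb2 difference of -0.25 (standard error 0.18, limma adjusted p = 0.553, exact permutation p = 0.183) was smaller than the SD of either group (0.28 in each). Rela, the subunit of the classical dimer and the remaining measured subunit of the family, read 14.07 to 14.63 in Ctrl and 14.03 to 14.31 in shPC, a difference of -0.18 (standard error 0.14, limma adjusted p = 0.579).

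Icam1, the endothelial and myeloid adhesion molecule that leukocytes bind through integrins, is a standard readout of TNF signaling. It read 9.84, 10.71, 10.95, 9.85 and 9.66 in Ctrl 1 to 5 and 9.63, 9.47, 9.91, 9.52 and 8.79 in shPC 1 to 5. Ctrl 2 and Ctrl 3 stood above the rest, and the other Ctrl tumors were near shPC 1 and shPC 3. The difference of -0.74 (standard error 0.29, limma adjusted p = 0.289, exact permutation p = 0.0476) was -0.57 without shPC 5, and Icam1 then no longer had an unadjusted p under 0.05.

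**Figure D2:**
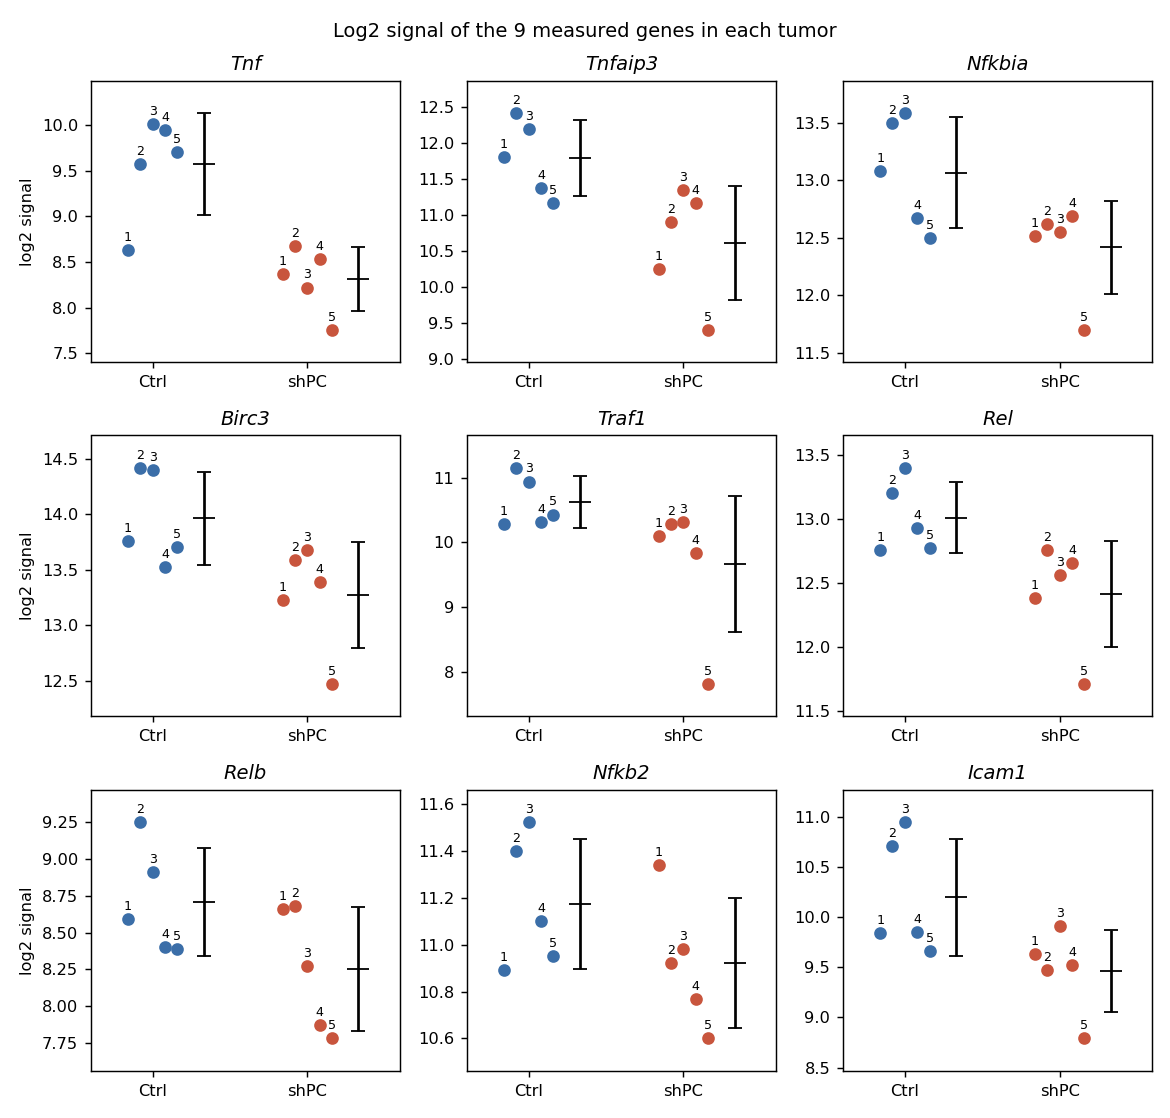
Log2 signal of the 9 measured genes in each tumor (points numbered by tumor, Ctrl blue, shPC red), with the mean and SD of each group (black, n = 5 each). Each panel has its own vertical scale. shPC 5 is the lowest point of every panel, Ctrl 2 and Ctrl 3 are at or near the top of most, and the groups overlap in all 9.

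The 9 genes agreed on the lowest tumor and mostly on the highest ones, and less on the order between. For example, shPC 1 was among the 3 lowest tumors in 6 genes and shPC 2 in 2. shPC 5 was the lowest of the 10 tumors in all 9 genes. Its array also had the lowest median over all genes (7.16), and the share of all genes in which shPC 5 was lowest is not given here. Ctrl 3 was the highest in 5 and Ctrl 2 in the other 4, and the pair took both top places in 8 of the 9. Tnf was the exception, with Ctrl 4 next to Ctrl 3. The mean over the 9 genes was 11.73 and 11.77 in Ctrl 2 and Ctrl 3, 11.03 to 11.12 in the other Ctrl tumors, 10.72 to 10.88 in shPC 1 to 4 and 9.78 in shPC 5. The groups did not overlap in this mean, with 10.88 in the highest shPC tumor and 11.03 in the lowest Ctrl tumor. Within Ctrl it spanned 11.03 to 11.77, and no test of this mean was run.

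Leukocyte markers varied across the tumors in the same direction. The mean of 8 genes that leukocytes share (Ptprc, which encodes CD45, and others) was 14.21, 14.39, 14.54, 14.04 and 14.06 in Ctrl 1 to 5 and 13.68, 13.89, 13.95, 13.59 and 13.24 in shPC 1 to 5, with Ctrl 3 and Ctrl 2 highest, shPC 5 lowest and the groups apart. Of these 8 genes 6 were lower in shPC at an unadjusted p under 0.05. T cell markers (8 measured, 6 lower at that p) averaged 9.96 to 11.27 in Ctrl and 6.59 to 10.14 in shPC, and NK cell markers (5 measured, 4 lower) 9.45 to 10.53 and 6.54 to 9.41, with shPC 5 lowest in both. Dendritic cell markers (8 measured, 3 lower) averaged 8.40 to 8.90 in Ctrl and 6.66 to 8.37 in shPC, and neutrophil markers (6 measured, 4 lower, Mmp8 under the 30th percentile on all 10 arrays) 5.18 to 6.75 and 4.74 to 5.28. Retnlg was under that percentile on 9 arrays, S100a8 on 5, S100a9 on 2 and Cxcr2 on 1, and the dendritic marker Zbtb46 on 6. S100a8, S100a9 and Cxcr2 are among the 4 lower neutrophil markers.

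Macrophage markers differed from these. Their mean (10 measured, 2 lower and 1 higher) was 13.67 to 13.91 in Ctrl and 13.46 to 14.07 in shPC, and shPC 5, the lowest tumor for all 9 genes, was the highest. The list's members went opposite ways, with a median difference of -0.16. Fcgr1, an Fc receptor (-0.37), and C1qa, a complement subunit (-0.32), were the 2 lower, the mannose receptor Mrc1 (0.83) was the 1 higher, and Csf1r, the receptor that macrophages depend on, differed by 0.01. B cell and lymph node markers (12 measured, 3 lower) averaged 6.70 to 7.54 in Ctrl and 5.56 to 6.76 in shPC, with Pax5 and Glycam1 under the 30th percentile on all 10 arrays and Ms4a1 on 8. Endothelial markers (9 measured, 0 lower at that p) averaged 8.32 to 9.75 and 8.81 to 10.01, and epithelial markers (9 measured, 3 lower) 5.51 to 8.43 and 4.32 to 6.45. Adipocyte markers averaged 9.29 to 13.41 in Ctrl and 6.69 to 12.43 in shPC. All 9 of them measured had a lower mean in shPC (median difference -2.09), 0 at that p.

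**Figure D3:**
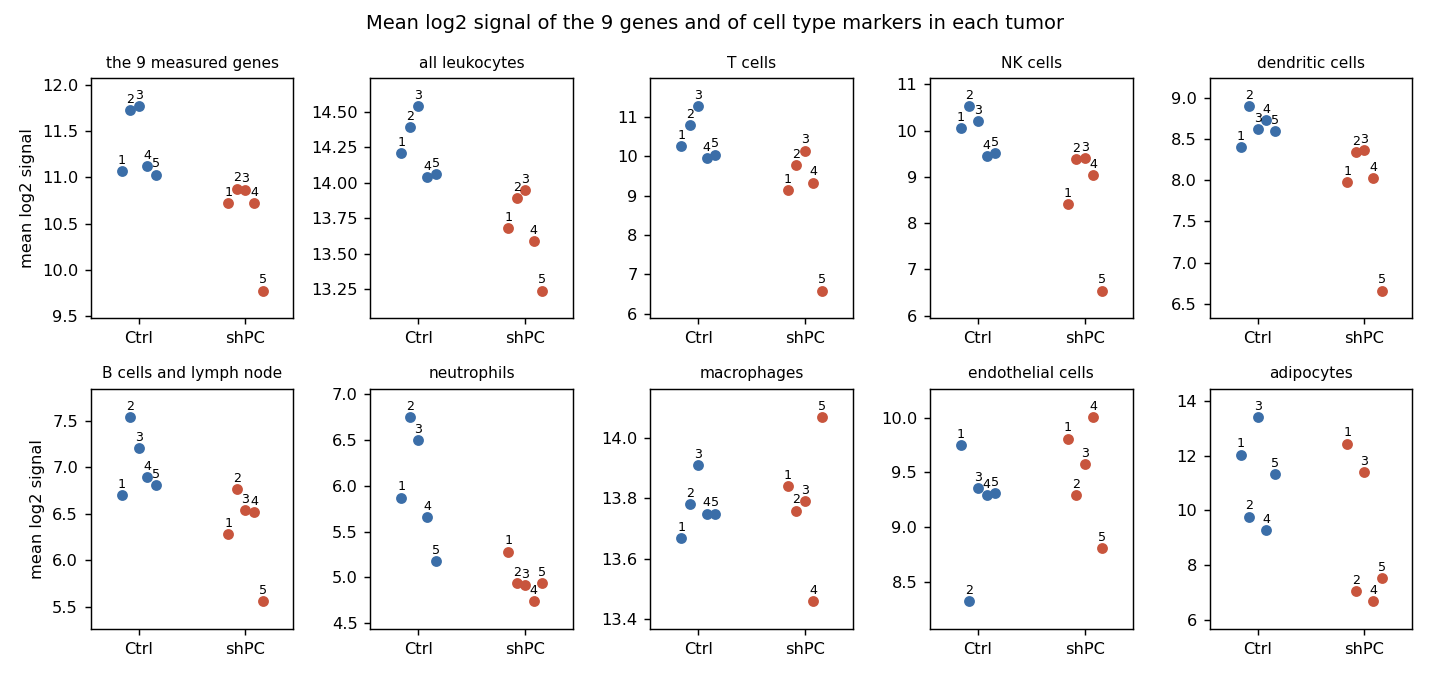
Mean log2 signal per tumor of the 9 measured genes and of the markers of each cell type (points numbered by tumor, Ctrl blue, shPC red; each panel has its own vertical scale). Leukocyte, T cell, NK cell and dendritic cell means put shPC 5 lowest as the 9 genes do, and the macrophage mean puts it highest at 14.07.

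With the leukocyte mean of each tumor as a covariate, Tnf differed by -0.88 (standard error 0.43, unadjusted p = 0.0654 from limma) and the other 8 genes lay above 0, from 0.10 (Rel) to 0.62 (Traf1), with none at an unadjusted p under 0.05. Since the leukocyte means of the groups did not overlap, this fit separates the group from the covariate poorly, and the standard error of Tnf was 0.43 in place of 0.27. With the B cell and lymph node mean as a covariate Tnf differed by -0.79 (standard error 0.32), and the others lay between -0.17 (Tnfaip3) and 0.28 (Traf1). That marker list holds Cxcl13 (8.24 to 15.93 over the tumors), Ccl21a and Glycam1, which are also on the list of alternative-route targets below. This covariate is therefore not independent of the pathway. With the adipocyte mean all 9 genes were still lower, and 3 of them (Tnf, Tnfaip3 and Rel) had an unadjusted p under 0.05. Whether Tnf differs from the other genes in this was not tested.

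**Figure D4:**
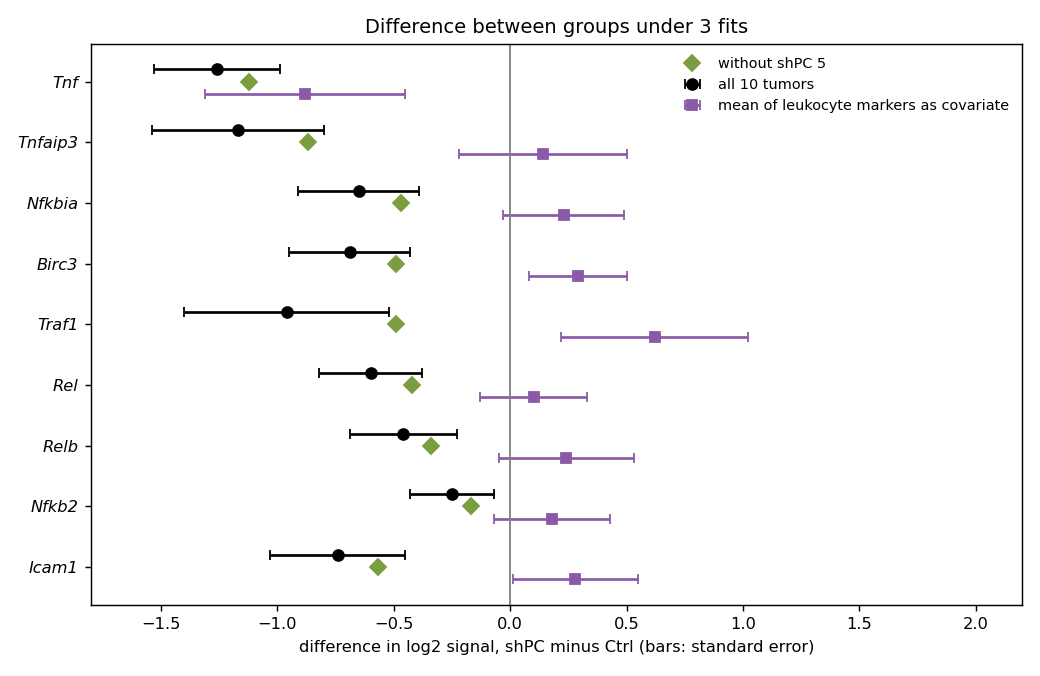
Difference in log2 signal, shPC minus Ctrl, of each gene with all 10 tumors (black circles), without shPC 5 (green diamonds) and with the mean of 8 leukocyte markers as a covariate (purple squares). Bars are standard errors of the limma fit, and the grey line marks no difference. With the covariate Tnf is at -0.88 and the other 8 genes lie right of the line.

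The wider pathway was read through 8 lists written from general knowledge, and the counts include the 9 genes wherever a list holds them. The lists hold Tnf as a ligand, Birc3 and Traf1 as adaptors or ligases, and Rel, Relb and Nfkb2 as subunits. They also hold Nfkbia in the IkB family, Tnfaip3 as a feedback gene and Icam1 as a target. None of their genes passed the adjusted threshold, so the counts that follow are at an unadjusted p under 0.05, with 6.25% lower and 7.8% higher over all genes. Of 15 TNF superfamily ligands measured, 5 were lower and 0 higher (median difference -0.59). Tnfsf10 encodes TRAIL, a death ligand that interferon also induces. It read 11.69 to 12.72 in Ctrl and 8.73 to 11.43 in shPC, so the groups were apart, and the difference was -1.65 (standard error 0.44, limma adjusted p = 0.194) or -1.23 without shPC 5. Lta, the lymphotoxin gene beside Tnf, read 6.17 to 7.24 in Ctrl and 5.55 to 6.42 in shPC, a difference of -0.75 (standard error 0.24, limma adjusted p = 0.233).

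Of 18 TNF superfamily receptors 5 were lower and 1 higher (median -0.26). The receptors of TNF itself, chosen for that role, had overlapping groups. Tnfrsf1a read 11.65 to 12.41 in Ctrl and 11.31 to 12.28 in shPC, and Tnfrsf1b 12.53 to 12.81 and 12.19 to 12.91, with differences of -0.24 (standard error 0.20) and -0.20 (standard error 0.15). Cd40, the costimulatory receptor of antigen-presenting cells, read 10.28 to 11.24 in Ctrl and 8.96 to 9.99 in shPC. Its groups were apart, and the difference was -1.18 (standard error 0.26, limma adjusted p = 0.185). Tnfrsf9 (4-1BB), found on activated T cells, differed by -0.81 (standard error 0.22, limma adjusted p = 0.197), with 4 of 5 shPC tumors below all Ctrl tumors.

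Tnfrsf10b, the mouse death receptor for TRAIL, had the opposite direction. It read 8.16 to 8.86 in Ctrl and 8.92 to 9.81 in shPC, apart and higher by 0.83 (standard error 0.21, limma adjusted p = 0.193). The differences of this ligand and its receptor thus had opposite signs, and shPC 5 was both the lowest tumor for Tnfsf10 and the highest for Tnfrsf10b.

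Among 25 adaptors, ligases and kinases 5 were lower and 0 higher (median -0.19). Map3k8 (TPL2, the kinase that carries the TNF signal to ERK) read 9.69 to 10.23 in Ctrl and 8.61 to 9.46 in shPC, apart, with a difference of -0.77 (standard error 0.21, limma adjusted p = 0.197). Birc2, the paralog and neighbor of Birc3, differed by -0.60 (standard error 0.20, limma adjusted p = 0.243), and 3 of 5 shPC tumors read below all Ctrl tumors.

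All 6 genes of the IkB family had a lower mean in shPC, of which only Nfkbia was counted at an unadjusted p under 0.05 and 0 without shPC 5 (median -0.38). Nfkbid, a nuclear IkB, differed by -0.57 (limma adjusted p = 0.359), Bcl3 by -0.40, Nfkbie by -0.35, Nfkbiz by -0.33 and Nfkbib by -0.21 (adjusted p 0.493 to 0.558). These 5 overlapped between the groups.

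Of 13 feedback genes and deubiquitinases 5 were lower and 0 higher (median -0.40). Usp18, which takes the ubiquitin-like ISG15 off proteins and restrains interferon signaling, read 12.25 to 13.10 in Ctrl and 10.13 to 12.16 in shPC. The groups were apart, with a difference of -1.42 (standard error 0.33, limma adjusted p = 0.185) and -1.15 without shPC 5. Tnip2, an A20-binding inhibitor, differed by -0.62 (standard error 0.20, limma adjusted p = 0.233).

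Of 34 target genes 15 were lower and 2 higher (median -0.63), and without shPC 5 these were 11 and 1. Cxcl10, a chemokine for T cells that interferon-gamma induces as well, read 13.83 to 14.93 in Ctrl and 11.63 to 13.87 in shPC, a difference of -1.47 (standard error 0.37, limma adjusted p = 0.194). Gadd45b, a stress gene, differed by -0.92 (standard error 0.23, limma adjusted p = 0.193). Higher in shPC were Plau, the urokinase gene, by 0.76 (standard error 0.20, limma adjusted p = 0.194), and Csf1, the growth factor of macrophages, by 0.43 (standard error 0.19, limma adjusted p = 0.35) or 0.25 without shPC 5, which read 16.97 where the other shPC tumors read 15.94 to 16.32.

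Of 6 targets of the alternative route 1 was lower (median -0.21). This was Cxcl13, the chemokine that draws B cells, with 15.42, 15.93, 14.95, 14.40 and 15.07 in Ctrl 1 to 5 and 12.18, 14.25, 14.42, 12.42 and 8.24 in shPC 1 to 5. All shPC tumors but shPC 3 were below all Ctrl tumors, and the difference was -2.85 (standard error 0.97, limma adjusted p = 0.248). It was -1.84 without shPC 5.

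**Figure D5:**
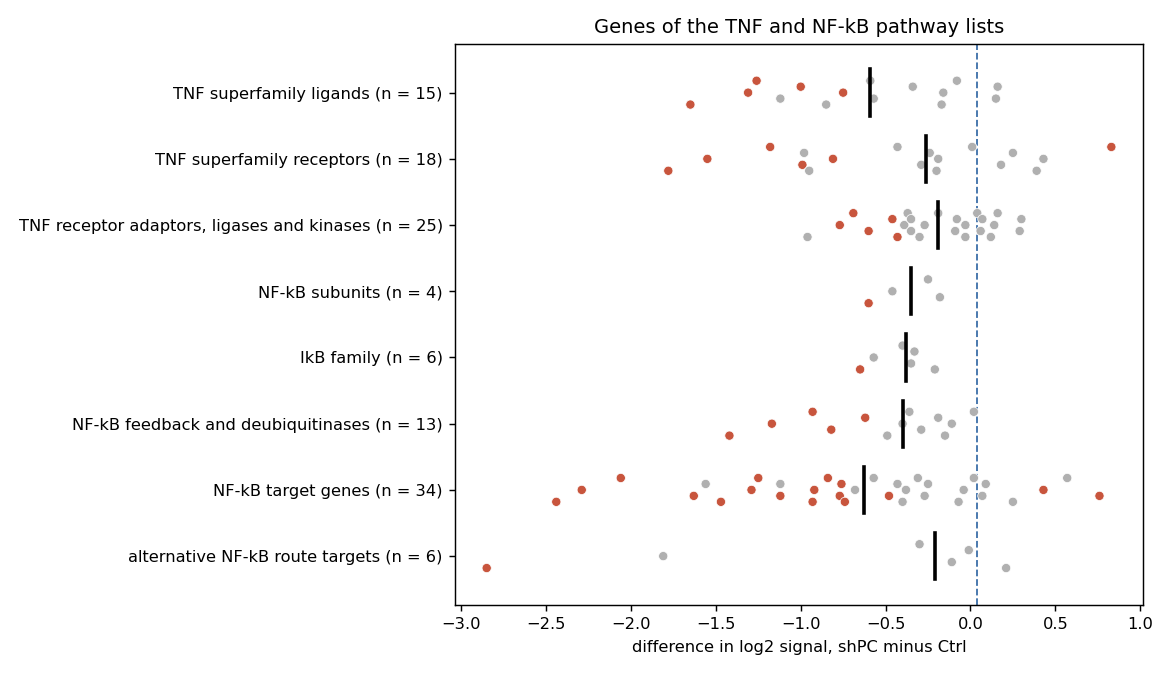
Difference in log2 signal, shPC minus Ctrl, of every measured gene of 8 pathway lists (1 point per gene, red at an unadjusted limma p under 0.05, grey otherwise; vertical position within a row has no meaning). Black bars are list medians, from -0.63 for target genes to -0.19 for adaptors, and the dashed line is the median of all genes, 0.04.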

How the data were processed

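The authors isolated RNA from whole tumors in TRIzol, labelled it with the WT PLUS kit, hybridized Clariom S mouse arrays and tested them in Transcriptome Analysis Console 4.0.1. The deposited values are log values and are read here as log2. The base is an assumption, because array maxima of 19.04 to 19.19 are above what a 16-bit scanner can give on that scale. How arrays were made comparable was not given in the sources used here. Values were used as deposited. A single gene is named for 19572 of the 22206 probe sets. The annotation does not list 2634, which were left out, and 0 carry several names. The brightest probe set on average stood for each of 55 genes that had more than 1.

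Groups came from the labels. All 19505 genes were compared with limma 3.58.1 (lmFit and eBayes, default settings) in R 4.3.3 with Benjamini-Hochberg adjustment over all of them (threshold 0.05), and single genes with exact permutation tests over every grouping of the tumors, two-sided and unadjusted. The procedure was tested on simulated data. The members and lists were chosen with earlier results of these data known. Named were all members, all subunits and IkB genes, in each other pathway list up to 2 genes per direction with the smallest p among those at an unadjusted p under 0.05, and the first or dim markers of cell types.

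Alternatives were quantile normalization, median centring, a filter on dim probe sets (above the 30th percentile of the array in at least 5 arrays), robust variances with a trend (statmod 1.5.0), weights for arrays, the methods' t-test (Student's, equal variances), averaged probe sets, a replicate block from the title numbers, 3 marker means as covariates, and leaving out tumors. Promoter windows are those of RefSeq, matched by gene symbol.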

Additional observations from a re-analysis of the deposited data

Results flagged for a closer look

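In groups of 5, the gap of the highest or lowest tumor to its neighbor was divided by the range of the group, and 5 of 58 groups tested (29 genes in 2 groups) exceeded Dixon's critical value of 0.71, where chance gives about 5%. In 3 of them shPC 5 was the lowest shPC tumor: Nfkbia (ratio 0.818, 11.70 against 12.51 in the next tumor), Traf1 (ratio 0.812, 7.81 against 9.84) and Nfkbid (ratio 0.776, 7.44 against 8.55). This tumor also had the lowest array median. The other 2 were in Tnip2, where Ctrl 2 was the highest Ctrl tumor (ratio 0.83, 11.39 against 10.66) and shPC 1 the highest shPC tumor (ratio 0.79, 10.58 against 10.09).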

How the results depend on the processing

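Single-gene differences were recomputed for 29 genes under 22 alternatives, and of 638 values 615 kept their direction and 23 changed it, all with a marker mean as a covariate. With the leukocyte mean these were Tnfaip3 0.14, Nfkbia 0.23, Nfkb2 0.18, Rel 0.10, Relb 0.24, Birc3 0.29, Icam1 0.28, Traf1 0.62, Rela 0.08, Nfkbie 0.40, Nfkbiz 0.11, Nfkbid 0.26, Bcl3 0.44, Csf1 -0.11 and Cxcl13 0.53, and with the B cell and lymph node mean, whose list holds Cxcl13, they were Nfkb2 0.03, Relb 0.03, Birc3 0.02, Traf1 0.28, Nfkbie 0.27, Nfkbiz 0.04, Nfkbid 0.00 and Bcl3 0.02. The median of the 9 genes was 0.23 and -0.02 in these fits, and the count lower at an unadjusted p under 0.05 was 0 and 1, and 3 with the adipocyte mean. Of all genes, 289, 373 and 802 were lower at that p with the leukocyte, B cell and lymph node, and adipocyte means. The B cell and lymph node list also holds Ccl21a and Glycam1, which like Cxcl13 are listed as targets of the alternative route. The adjusted p of the 9 ranged from 0.104 to 1.0 over all alternatives. Leaving out 1 tumor gave 3 to 8 genes lower at an unadjusted p, medians of -0.80 to -0.49, 0 to 3 genes with groups apart (3 without Ctrl 1) and 0 to 4 of all genes past an adjusted p (1 without Ctrl 4, 1 without shPC 2 and 4 without shPC 4). Groups were apart in 2 genes after quantile normalization and in 3 without both Ctrl 1 and shPC 5. The share of all genes apart is given only for all 10 tumors with the values as deposited. With 1 tumor left out, 955 to 1338 of all genes were lower at an unadjusted p under 0.05. Of all genes 1 passed with median centring and 10 with trend and robust variances. Centring moved the median of all genes from 0.04 to 0.14 and the split at an unadjusted p from 1219 lower and 1521 higher to 852 lower and 2180 higher, and all 9 genes stayed lower. With the title number as a replicate block 0 genes passed and 8 of the 9 were lower at an unadjusted p, in place of 6. Of all genes 1465 were lower at that p with the block, in place of 1219. Tumors of the same number deviated together with r of 0.04 to 0.28, and 3 of 5 Ctrl tumors correlated best with the shPC tumor of their own number. The labels do not say that a number marks a pair, and whether it does was not settled. Why these values moved was not tested.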

Other observations

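Of the receptor list, the genes with the lowest differences were Tnfrsf18 and Tnfrsf4, named here after their values were seen. Other genes of the superfamily known from T cells were mixed. Ltb differed by -1.12, Fasl by -0.85 and Tnfrsf9 by -0.81, whereas Tnfrsf25 differed by 0.18, Tnfsf14 by 0.15, Cd40lg by -0.08 and Tnfrsf8 by -0.19. Cd40lg (4.27 to 6.53), Tnfrsf8 (4.74 to 5.99) and Tnfsf14 (5.15 to 6.49) read below the median of every array (7.16 to 7.47). At such low signals a small difference says little. Tnfrsf18 (GITR) read 10.22 to 11.06 in Ctrl and 6.26 to 10.14 in shPC, with a difference of -1.78 (limma adjusted p = 0.248), and Tnfrsf4 (OX40) 9.65 to 10.87 and 6.84 to 9.97, with a difference of -1.55 (limma adjusted p = 0.234). Ccl5, a chemokine of T and NK cells, read 13.60 to 14.95 in Ctrl and 8.66 to 13.87 in shPC, with a difference of -2.29 (limma adjusted p = 0.254). In Tnfrsf18, Tnfrsf4 and Ccl5 shPC 5 was the lowest tumor. Tnfsf13b (BAFF), a survival factor of B cells, read 11.15 to 11.91 in Ctrl and 8.19 to 10.98 in shPC without overlap, a difference of -1.31 (limma adjusted p = 0.268) that was -0.82 without shPC 5. By contrast Ltbr, the lymphotoxin receptor that feeds the alternative route, differed by 0.01, and Cxcl2, a target that neutrophils follow, lay under the 30th percentile on all 10 arrays.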
